A study of Mus musculus with 272 samples.

Results

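The genes described here are those of the aminoacyl-tRNA synthetases, the enzymes that load amino acids onto tRNAs. They were chosen by symbol, as rows whose name is an amino acid letter followed by "ars" with or without a 1 or 2, together with Farsa, Farsb, Fars2, Eprs, Tarsl2 and Pars2. The rule found 38 genes among the 15771 symbols kept of 15854 deposited, and no measured value entered it. By symbol, 19 encode cytosolic enzymes, 17 encode mitochondrial enzymes (symbols ending in 2, except Tarsl2), and Gars and Kars each encode both forms.

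The study measured RNA in mouse oocytes and preimplantation embryos at 8 stages: the germinal vesicle (GV) oocyte, the metaphase II (MII) oocyte, the zygote, the 2-cell (2C), 4-cell (4C) and 8-cell (8C) embryo, the morula and the blastocyst. Each stage had 4 transcriptome libraries, from pools of 20 oocytes or embryos, and 3 sucrose gradients, each loaded with lysate of about 100 and cut into 10 fractions that were sequenced 1 by 1. The pools came from the batches used for the gradients. All lysates for gradients contained cycloheximide, which holds ribosomes on their transcripts, and the labels give no genotype, strain, age or treatment beside the stage. The labels give lettered pools and gradients and do not say whether these were collected separately, so the p-values measure the spread between these samples, which may be technical.

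A synthetase recognises 1 amino acid and its tRNAs and joins them at the cost of ATP, and the loaded tRNA then feeds the ribosome. Cytosolic and mitochondrial translation use separate tRNA sets, and most amino acids therefore have a cytosolic enzyme and a nuclear-encoded enzyme that is imported into mitochondria. In the cytosol, 8 members (Dars, Eprs, Iars, Kars, Lars, Mars1, Qars and Rars) are held in the multisynthetase complex by the scaffold proteins Aimp1, Aimp2 and Eef1e1, and several cytosolic synthetase genes are known targets of Atf4, the transcription factor of the amino acid response.

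Values are CPM, a gene's reads scaled to 1000000 reads per library, so they give no amount of RNA per oocyte or embryo. Changes are differences of mean log2(CPM + 1), and a gene was called changed at a Benjamini-Hochberg adjusted p under 0.05 and a difference of at least 1, from limma over all genes tested. Transcriptomes held 11.2 to 24.3 M reads (M, 1000000) and fractions 0.0102 to 43.2 M, with 15 of 240 fractions under 1 M. The 7 oocyte markers summed to 18098 to 20765 CPM in GV pools and 7.22 to 12.9 CPM in blastocysts. The 4 2-cell markers summed to 1470.3 to 2087 CPM at the 2-cell stage, and the 7 blastocyst markers to 2480 to 3028 CPM in blastocysts. Of 10 cumulus and granulosa markers 5 were in the table, and they summed to 7.37 to 69.7 CPM over all 32 transcriptomes.

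Summed, cytosolic synthetase transcripts and the mitochondrial ones other than Lars2 had their lowest share of the transcriptome at the 2-cell stage and a several-fold higher share from the 4-cell stage on. The 19 cytosolic genes summed to 1529 to 1698 CPM in GV pools, 532 to 670.2 CPM in 2-cell pools, 1837 to 2153 CPM in 4-cell pools and 2173 to 2480 CPM in blastocysts. The 16 mitochondrial genes other than Lars2 summed to 299 to 320.2 CPM in GV pools, 80.9 to 136 CPM at the 2-cell stage, 303 to 373 CPM at the 4-cell stage and 345 to 378 CPM in blastocysts. In both sets the range at the 2-cell stage lay below the ranges at the GV, 4-cell and blastocyst stages, with no overlap. Fars2 alone carried most of the early sum of the 16. Its means from GV to 2-cell were 196, 151, 103 and 60.3 CPM, of 306, 179, 140 and 103 CPM. The median of the 16 per kilobase of exon was instead lowest in MII oocytes and zygotes, at 0.192 and 0.190 CPM per kb. It was 0.457 at the 2-cell stage and 3.65 at the 4-cell stage. Lars2 is set apart because it alone carried most of the mitochondrial sum in blastocysts, and it is described further on. With Lars2 the mitochondrial sum was lowest in zygotes, at 195 ± 2.99 CPM (SD, n = 4), beside 249 ± 50.9 CPM at the 2-cell stage, and Gars and Kars together were lowest in MII oocytes, at 43.0 ± 4.96 CPM, beside 90.5 ± 19.5 CPM at the 2-cell stage.

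Per kilobase of exon, the most abundant member changed with stage. Rars, the arginyl enzyme, led in GV oocytes at 130.3 ± 5.97 CPM per kb (SD, n = 4), ahead of Qars at 87.8 ± 8.15 CPM per kb. Farsb, which encodes the beta chain of the cytosolic phenylalanyl enzyme, led in MII oocytes, zygotes and 2-cell embryos at 91.2 ± 13.4, 88.4 ± 5.39 and 74.3 ± 9.14 CPM per kb. Rars led again at the 4-cell stage with 215 ± 28.0 CPM per kb and at the 8-cell stage with 142 ± 18.3 CPM per kb, and Kars, the lysyl gene, was among the top 3 from the 4-cell stage to the blastocyst. The mitochondrial Fars2 was the only member of its class other than Lars2 among the top 3 at any stage, at 83.5 ± 3.47 CPM per kb in GV oocytes. From the morula on Lars2 had the highest value of all members, 194 ± 190.2 and 732 ± 249 CPM per kb, with a spread over pools as wide as the value in morulae. At the low end, Iars2 had 0.157 ± 0.0595 CPM per kb in GV oocytes and 0.231 ± 0.148 CPM per kb at the 4-cell stage.

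**Figure D1:**
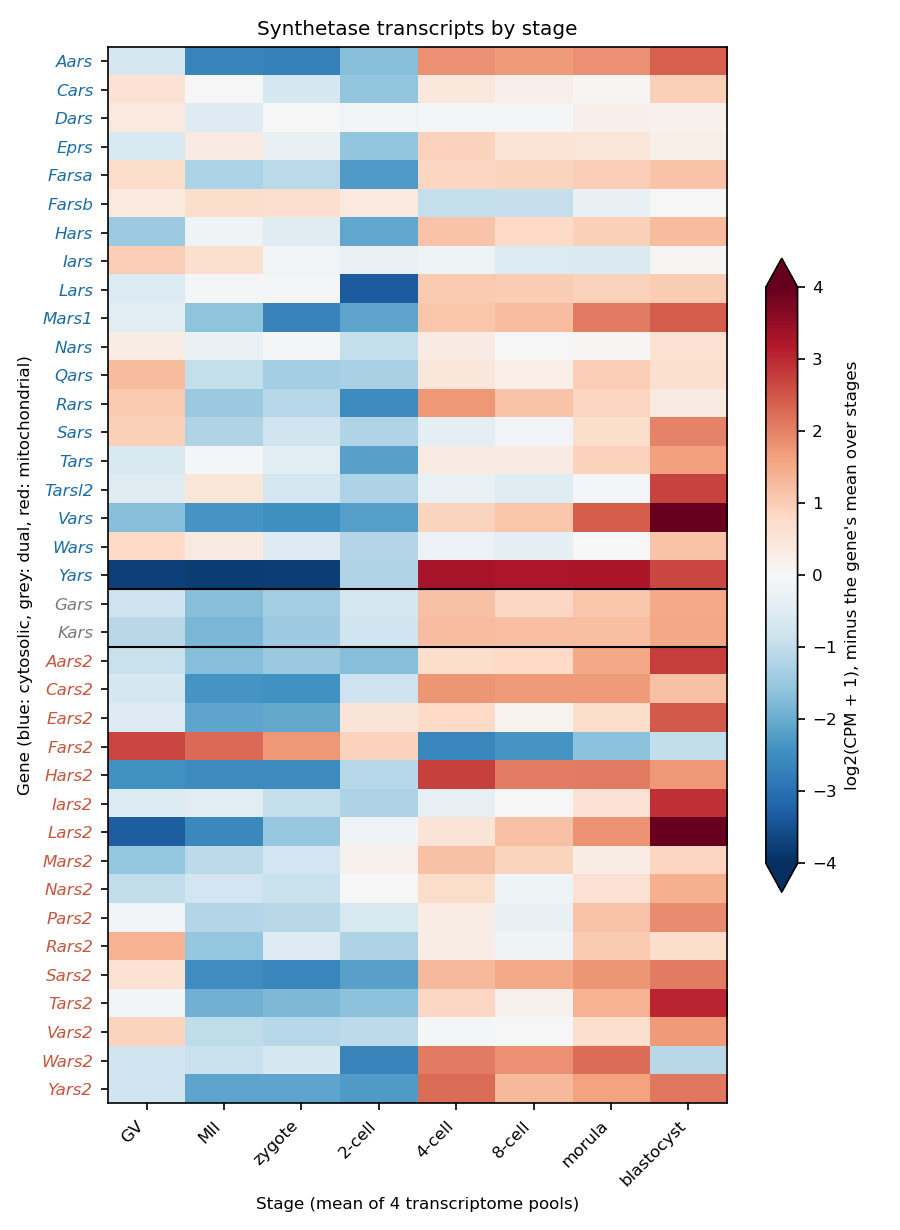
Mean transcriptome level of 37 of the 38 synthetase genes at each of 8 stages, as log2(CPM + 1) minus the gene's own mean over stages, with colours saturating at 4 in either direction. Most genes are above their own mean from the 4-cell stage on. Fars2 is the other way round, and Farsb and Iars are below their own means from the 4-cell stage to the morula.

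Oocyte maturation came with a fall of many synthetase transcripts. From GV to MII, 15 of 38 fell and 1 rose, 42.1% of the members against 34.5% of all 14642 genes tested (9.11% higher and 25.3% lower), and the members' median change was -0.68 against -0.11 for all genes. The mitochondrial class had 9 of 17 lower and none higher, and the cytosolic class 6 of 19 lower and 1 higher. Rars, the arginyl enzyme of the multisynthetase complex, read 289, 264, 265 and 281 CPM in GV pools and 46.8, 51.6, 32.3 and 62.0 CPM in MII pools, without overlap. It fell by 2.52 (SE 0.18, adjusted p = 1.67e-14), the largest fall in the cytosolic class. Sars2, which charges mitochondrial serine tRNAs, read 11.2, 10.3, 12.2 and 9.64 CPM and then 0.526, 0.223, 0.563 and 0.211 CPM. Its fall of 3.11 (SE 0.24, adjusted p = 1.84e-13) left every MII pool below 1 CPM. Hars, the cytosolic histidyl enzyme, was the member that rose, from 12.7, 17.97, 13.6 and 13.1 CPM to 44.9, 32.4, 39.7 and 32.7 CPM, by 1.33 (SE 0.18, adjusted p = 4.71e-08).
The other falls included Aars, Farsa, Mars1, Qars and Sars among cytosolic genes, by 1.21 to 2.21, and Cars2, Ears2, Pars2, Rars2, Tars2, Vars2 and Yars2 among mitochondrial genes, by 1.06 to 2.94. Neither Gars nor Kars passed the test. A pool mixes its oocytes, so fewer cells with a transcript and less of it per cell cannot be told apart. The libraries were made from polyadenylated RNA, so a change in a transcript's amount and in its polyadenylated part cannot be told apart either. The split of 1 higher and 15 lower depended on scaling, since quantile normalization, which moved the median of all genes from -0.11 to 0.16, gave 5 and 10, and edgeR and DESeq2 on recovered reads gave 5 and 17 each.

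Fertilization brought few changes. From MII to zygote 4 of 38 members changed, 10.5% against 10.3% of all genes (5.79% higher and 4.48% lower), with 2 higher and 2 lower. Tarsl2, a second cytosolic threonyl enzyme, read 5.48, 7.58, 4.13 and 7.66 CPM in MII oocytes and 1.77, 1.75, 2.16 and 2.78 CPM in zygotes, without overlap, and fell by 1.19 (SE 0.28, adjusted p = 0.00129). Mars1, the cytosolic methionyl enzyme, also fell, by 1.05, and the mitochondrial Rars2 rose by 1.03. Lars2, the mitochondrial leucyl gene, read 33.9, 25.4, 21.9 and 24.5 CPM and then 51.3, 54.8, 59.4 and 54.6 CPM, also without overlap. Its rise of 1.05 (SE 0.35, adjusted p = 0.0226) was not called without pool C (0.93, adjusted p = 0.135), without pool D (adjusted p = 0.0698) or after quantile normalization (0.98, adjusted p = 0.0453). With these settings 2 members were called without pool C and 2, both lower, after quantile normalization.

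Between the zygote and the 2-cell embryo, when the first large wave of embryonic transcription begins, members moved both ways. Of 38 members 7 rose and 7 fell, 36.8% against 33.9% of all genes (25.2% higher and 8.71% lower), with a median of -0.13 beside 0.37 for all genes. Among cytosolic genes 2 rose (Aars and Yars) and 6 fell, and among mitochondrial genes 5 rose (Cars2, Ears2, Hars2 and Lars2 among them) and 1 fell. Yars, the cytosolic tyrosyl enzyme, read 0, 0.190, 0 and 0.111 CPM in zygotes and 6.48, 5.13, 8.12 and 2.87 CPM in 2-cell embryos. It rose by 2.57 (SE 0.21, adjusted p = 3.84e-13) from a level near 0 that it also had in both oocyte stages. Ears2, the mitochondrial glutamyl enzyme, went from 0.197, 0.474, 0.117 and 0.889 CPM to 9.11, 5.44, 7.87 and 6.92 CPM, a rise of 2.57 (SE 0.25, adjusted p = 7.82e-11).
In the other direction, Lars, the cytosolic leucyl enzyme of the multisynthetase complex, read 31.6, 33.8, 30.6 and 37.6 CPM in zygotes and 4.04, 0.996, 2.88 and 3.46 CPM in 2-cell embryos. This fall of 3.24 (SE 0.21, adjusted p = 1.72e-15) was the largest of any member between these stages, and Eprs, Farsa, Hars, Rars and Tars fell by 1.19 to 1.73. Wars2, the mitochondrial tryptophanyl enzyme, fell by 1.91 (SE 0.19, adjusted p = 1.46e-10), from 16.1, 14.1, 12.8 and 13.8 CPM to 4.36, 2.45, 4.06 and 1.77 CPM, without overlap. Hars2 was at 0 reads in all 4 zygote pools and at 0.706, 1.69, 2.62 and 1.77 CPM in 2-cell pools, at least 10.5-fold higher against a floor of 3 reads per library. Quantile normalization, which moved the median of all genes from 0.37 to -0.08, gave 3 members higher and 11 lower, DESeq2 gave 8 and 14, and edgeR gave 9 and 13.

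The largest shift of the series in these genes lay between the 2-cell and 4-cell stages. Of 38 members 26 rose and 2 fell, 73.7% called against 64.8% of all genes (31.8% higher and 32.9% lower). The members' median change was 2.02 against 0.02 for all genes. By class, 13 of 19 cytosolic genes, both dual genes and 11 of 17 mitochondrial genes rose. Yars read 172, 181, 119 and 114 CPM in 4-cell embryos, a further rise of 4.51 (SE 0.21, adjusted p = 1.09e-20). Wars2 recovered to 89.6, 105, 95.9 and 126 CPM, a rise of 4.70 (SE 0.19, adjusted p = 6.59e-22) that put it above its oocyte level. Lars and Rars, which had been lowest in 2-cell embryos, rose by 4.37 and 4.27, the largest rises within the multisynthetase complex, where 6 of 8 members rose and Dars and Iars did not pass the test. Yars2, the mitochondrial tyrosyl enzyme, rose by 4.53, and Aars2, at 0 reads in all 4 2-cell pools, read 5.67, 5.35, 4.45 and 2.53 CPM in 4-cell pools, at least 19.1-fold higher.
Both genes that fell encode phenylalanyl enzymes. Fars2, the mitochondrial enzyme, read 85.2, 57.5, 51.9 and 46.4 CPM in 2-cell embryos and 2.01, 5.01, 7.82 and 3.19 CPM in 4-cell embryos, and fell by 3.55 (SE 0.28, adjusted p = 4.25e-14). Farsb read 185, 138, 159 and 172 CPM and then 66.8, 72.5, 52.0 and 60.7 CPM, and fell by 1.36 (SE 0.16, adjusted p = 1.30e-09). Farsa, the catalytic alpha chain that pairs with Farsb in 1 enzyme, rose by 3.14 (SE 0.19, adjusted p = 2.61e-17), from 12.7, 6.05, 11.9 and 6.996 CPM to 91.0, 94.7, 97.9 and 68.9 CPM. The calls of Yars, Wars2, Fars2 and Farsb held without each pool letter in turn, after quantile normalization, and with edgeR and DESeq2. The 2-cell columns carry the letters E to H, and these were left out in order along with A to D.

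**Figure D2:**
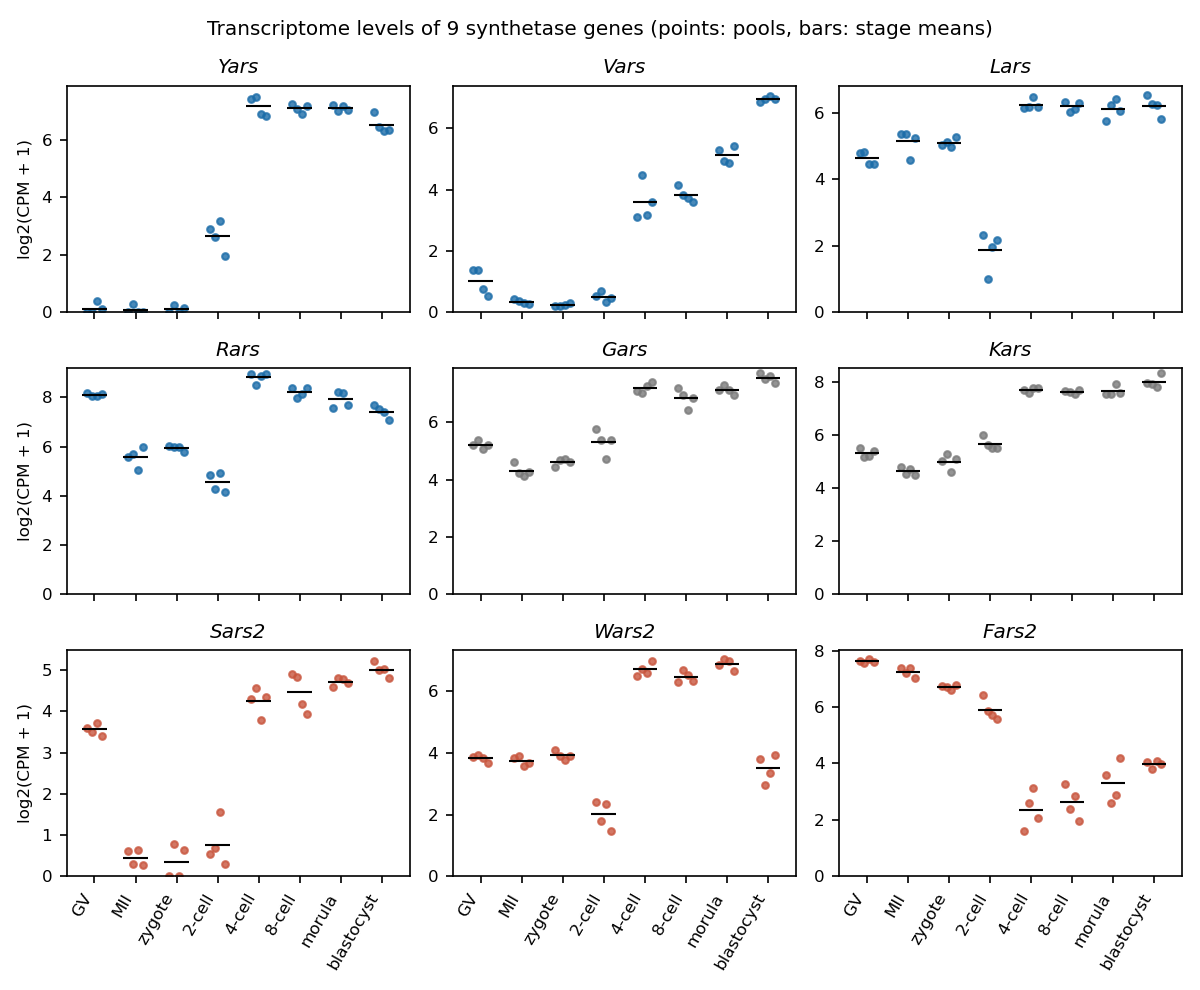
Transcriptome level of 9 synthetase genes, as log2(CPM + 1) on axes that start at 0, in the 4 pools of each stage (points) with the stage mean (bar). Yars and Vars rise from near 0 in oocytes, Lars, Rars and Wars2 have a low point at the 2-cell stage, and Fars2 falls between the 2-cell and 4-cell stages.

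Promoter sequences, from RefSeq on GRCm38.p6 and 250 bases before to 50 after each annotated start, matched 28 of the 38 members. The motif TGATGNAA, the C/EBP-ATF response element bound by Atf4 with its C/EBP partners, was searched on both strands. It was in 5 of the 28 promoters, in 4 of 12 cytosolic, 1 of 2 dual and 0 of 14 mitochondrial genes, against 3.97% of 32851 promoters. The stretches that hold it are shown because these genes include both the cytosolic member with the steepest rise at the 4-cell stage, Yars, and Iars, which was not called there. Each is 5′ to 3′ on the gene's strand, with the match in capitals.
Yars, chr4:129189843-129189913, plus strand: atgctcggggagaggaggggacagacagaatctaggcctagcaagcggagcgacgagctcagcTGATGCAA
Gars, chr6:55037941-55038000, plus strand: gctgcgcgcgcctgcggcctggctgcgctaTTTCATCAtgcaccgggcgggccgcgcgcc
Aars, chr8:111033700-111033858, plus strand: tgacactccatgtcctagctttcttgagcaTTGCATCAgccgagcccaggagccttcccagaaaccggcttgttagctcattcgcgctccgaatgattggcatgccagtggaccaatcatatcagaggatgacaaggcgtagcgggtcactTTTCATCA
Iars, chr13:49682070-49682144, plus strand: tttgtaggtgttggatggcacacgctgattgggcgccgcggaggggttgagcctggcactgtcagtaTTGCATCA
Tars, chr15:11399659-11399718, minus strand: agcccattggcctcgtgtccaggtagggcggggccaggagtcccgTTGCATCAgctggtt
Counted from the annotated start as position 1, the matches begin at 4 in Yars, -30 in Gars, -112 and 10 in Aars, 8 in Iars and -15 in Tars. Beside these sequences, the changes from the 2-cell to the 4-cell stage were 4.51 for Yars, 1.89 for Gars, 3.54 for Aars, 2.51 for Tars and 0.12 for Iars, which was not called (adjusted p = 0.457). The motif of NRF1, a regulator of nuclear genes for mitochondria, was searched on both strands and was in 5 of the 28 promoters (Farsb, Iars2, Kars, Mars2 and Tars), against 4.60% of all promoters. A match in these windows describes the letters and shows no binding.

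Few members changed between the 4-cell stage and the morula. From the 4-cell to the 8-cell stage limma called 0 of 38 members, against 2.6% of all genes (0.451% higher and 2.14% lower), while 10 members had an unadjusted p under 0.05 and edgeR and DESeq2 each called 0. Without pool A or without pool D 1 member was called. From the 8-cell stage to the morula 4 members rose and none fell, 10.5% against 11.9% of all genes (8.18% higher and 3.7% lower). Vars, the cytosolic valyl enzyme, went from 16.7, 13.1, 12.3 and 10.96 CPM to 38.4, 29.4, 28.0 and 42.1 CPM, without overlap, and rose by 1.31 (SE 0.23, adjusted p = 4.44e-05). Pars2, the mitochondrial prolyl enzyme, read 0.443, 1.42, 1.81 and 3.98 CPM and then 12.1, 6.94, 3.63 and 4.49 CPM, with 1 8-cell pool above the lowest morula pool. Its rise of 1.44 (SE 0.32, adjusted p = 7.84e-04) was not called without pool A (0.86, adjusted p = 0.0495), and Rars2 and Tars2 also rose, by 1.18 and 1.22.

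From the morula to the blastocyst 10 members rose and 1 fell, 28.9% against 26.8% of all genes (18.8% higher and 7.97% lower). Without Lars2 the count was 9 higher and 1 lower of 37. Tarsl2 read 3.14, 5.47, 2.54 and 4.94 CPM in morulae and 18.2, 46.0, 28.9 and 41.5 CPM in blastocysts, and rose by 2.75 (SE 0.28, adjusted p = 4.56e-10). Vars rose again, by 1.83, to 115, 123, 130.4 and 124 CPM, and Sars and Wars, the cytosolic seryl and tryptophanyl enzymes, rose by 1.26 and 1.16. In the mitochondrial class Iars2, the isoleucyl enzyme, went from 3.65, 4.08, 3.33 and 2.81 CPM to 17.2, 20.6, 17.2 and 34.6 CPM, a rise of 2.34 (SE 0.28, adjusted p = 9.74e-09). Wars2 was the exception, at 114, 131, 126 and 99.8 CPM in morulae and 12.9, 6.78, 9.26 and 14.2 CPM in blastocysts, and fell by 3.37 (SE 0.19, adjusted p = 4.03e-16). None of the 8 members of the multisynthetase complex was called in this comparison, of which 3 had an unadjusted p under 0.05.

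Set against the GV oocyte, the blastocyst had 24 members higher and 1 lower, 65.8% against 69.1% of all genes (38.2% higher and 30.9% lower). Of the 25 called, 24 were higher. The members' median change was 2.12 against 0.32 for all genes, and it was 2.00 without Lars2. Mitochondrial genes had 13 of 17 higher and 1 lower, cytosolic genes 9 of 19 higher and none lower. Yars had the largest cytosolic rise, 6.40 (SE 0.21, adjusted p = 2.72e-25), from 0, 0, 0.303 and 0.0748 CPM to 124, 86.5, 78.6 and 80.2 CPM, followed by Vars at 5.95. In the mitochondrial class Mars2 and Nars2, the methionyl and asparaginyl enzymes, rose by 2.39 each. Fars2 was the member that fell, by 3.64 (SE 0.28, adjusted p = 1.85e-14), from 196, 189, 208 and 192 CPM to 15.6, 13.0, 15.8 and 14.9 CPM. Of the multisynthetase complex 3 of 8 rose (Kars, Lars and Mars1), and Dars, Eprs, Iars, Qars and Rars had changes smaller than 1, of -0.24, 0.85, -0.93, -0.61 and -0.68. This comparison shares its samples with the consecutive ones, which share a stage with each other. DESeq2 gave 23 higher and 4 lower, and edgeR 23 and 2.

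The pair of genes that serve both compartments stepped up at the same stage. Gars, the glycyl gene, read 35.9, 40.4, 32.3 and 36.4 CPM in GV oocytes, 23.7, 17.9, 16.7 and 18.2 in MII oocytes, 21.0, 24.7, 25.6 and 23.6 in zygotes and 53.4, 40.4, 25.6 and 41.1 in 2-cell embryos. From there on it read 137, 129.9, 155 and 169 CPM at the 4-cell stage, 147, 122, 86.1 and 114 at the 8-cell stage, 140.1, 156, 140.4 and 124 in morulae and 209, 183, 194 and 164 in blastocysts. The highest of its 16 early pools, at 53.4 CPM, lay below the lowest of its 16 later pools, at 86.1 CPM. Kars, the lysyl gene, read 45.02, 35.2, 36.2 and 41.2 CPM in GV oocytes, 26.6, 22.4, 25.1 and 21.5 in MII oocytes, 31.6, 37.8, 23.1 and 33.1 in zygotes and 63.8, 48.3, 45.02 and 44.6 in 2-cell embryos. At the later stages it read 206, 192, 217 and 216 CPM, 204, 199, 189 and 205 CPM, 187, 184, 242 and 192 CPM and 249, 241, 223 and 322 CPM in the same order. Each gene had 1 called step between consecutive stages, from the 2-cell to the 4-cell stage, of 1.89 for Gars (SE 0.17, adjusted p = 1.58e-12) and 2.03 for Kars (SE 0.15, adjusted p = 4.46e-15).

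To compare enzymes for the same amino acid, the log2 ratio of the cytosolic to the mitochondrial gene was taken within each library for 19 pairs and tested over 8 comparisons. None of the 152 tests passed: the smallest p that an exact two-sided permutation test of 4 against 4 pools can give is 0.0286, which became 0.0564 after adjustment. At that smallest p stood 15 pairs at the GV/MII step, 12 at the zygote/2-cell step, 13 at the 2-cell/4-cell step and 0 at the 4-cell/8-cell step. Between consecutive stages, 3 large shifts, chosen after their values were seen, are given as values. The log2 ratio of Farsa to Fars2 was -2.58 ± 0.420 (SD, n = 4) in 2-cell and 4.12 ± 0.6004 in 4-cell embryos, a change of 6.69 toward the cytosolic chain. That of Lars to Lars2 went from -0.71 ± 0.169 in zygotes to -5.32 ± 0.583 in 2-cell embryos, a change of -4.62. That of Wars to Wars2 went from -1.60 ± 0.440 in morulae to 2.94 ± 0.459 in blastocysts, a change of 4.53. These 3 were taken from the pairs at the smallest p, which arises only where the pools of the 2 stages do not overlap.

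Lars2 differed from the other mitochondrial members in level. Its mean was 15.3 ± 1.38 CPM (SD, n = 4) in GV oocytes, 55.0 ± 3.34 in zygotes, 146 ± 28.0 at the 2-cell stage, 239 ± 94.5 at the 4-cell stage and 2849 ± 970.0 in blastocysts. The rise from GV to blastocyst was 7.38 (SE 0.35, adjusted p = 3.04e-20), the largest of any member. In the same libraries Rn18s, the 18S ribosomal RNA, read 143 ± 18.02 CPM in GV oocytes and 69484 ± 31373 CPM in blastocysts. The morula pool with the highest Lars2, A at 1854 CPM beside 292 to 545 in the others, was also the pool with the highest Rn18s, 37876 CPM beside 8612 to 14917. Across the 32 transcriptomes, which share stage and depth, log2 levels of Lars2 and Rn18s had a Pearson r of 0.95 and a Spearman rho of 0.96. Over the 240 fractions, which share gradients, r was 0.74 for Lars2, and the next highest of the 38 members was Yars at 0.15. The pooled value mixes stages, and within the 30 fractions of a stage r for Lars2 was 0.89 in GV oocytes, 0.90 in MII oocytes, 0.94 in zygotes, 0.68, 0.41 and 0.64 at the 2-cell, 4-cell and 8-cell stages, 0.12 in morulae and 0.51 in blastocysts. Mir6236, another RNA set beside Lars2, had r of 0.85 over the transcriptomes, where its stage means were at most 2.31 CPM. Over the 240 fractions its r was 0.80. Within the fractions of a stage its r was 0.33 in GV oocytes, 0.82 in MII oocytes and 0.67 in zygotes. It was 0.57, 0.72 and 0.61 at the 2-cell, 4-cell and 8-cell stages, 0.75 in morulae and 0.71 in blastocysts. Whether ribosomal RNA reads have a part in the level of Lars2 was not tested. Without Lars2, the members higher and lower would number 1 and 2 at the MII/zygote step, 6 and 7 at the zygote/2-cell step and 23 and 1 between GV oocyte and blastocyst.

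**Figure D3:**
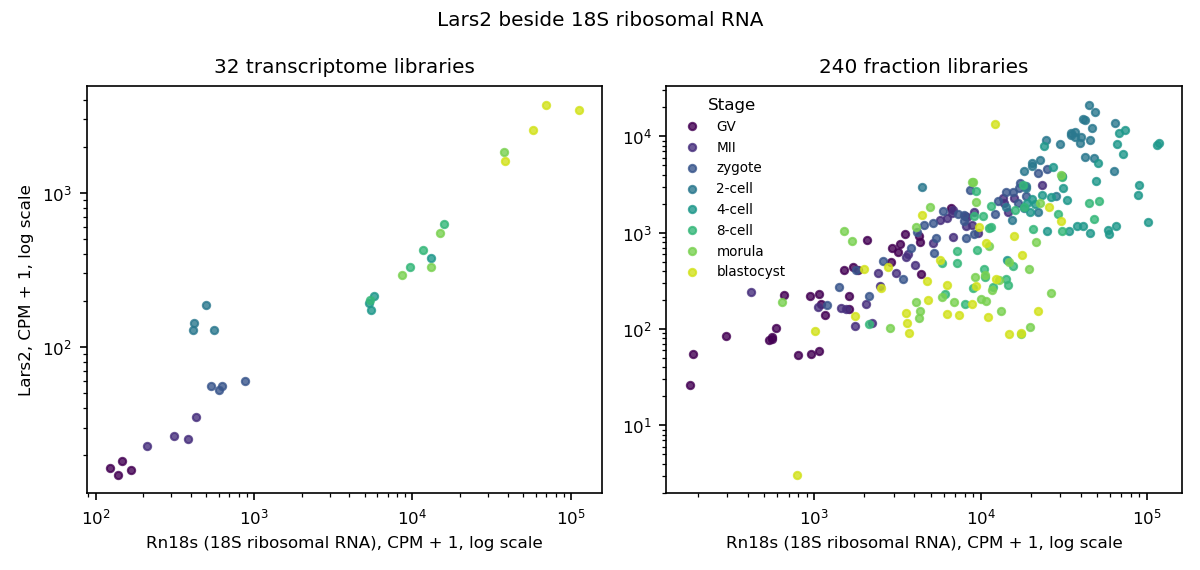
Lars2 against Rn18s (18S ribosomal RNA), both as CPM + 1 on log axes, in the 32 transcriptome libraries and the 240 fraction libraries, coloured by stage. In the transcriptomes both are lowest in GV oocytes and highest in blastocysts.

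Other genes of the pathway were read from 4 lists. The 3 scaffold genes of the multisynthetase complex all fell from GV to MII, Aimp2 the most by 3.22 (SE 0.16, adjusted p = 4.11e-19), and all rose from the 2-cell to the 4-cell stage, Aimp1 the most by 4.48 (SE 0.21, adjusted p = 3.51e-20). Of 12 genes for tRNA charging, editing and recycling, 3 fell and none rose from GV to MII and 7 rose and none fell from the 2-cell to the 4-cell stage, beside 9.11% higher and 25.3% lower and 31.8% higher and 32.9% lower of all genes. Of 13 genes for tRNA maturation and export, 8 rose and 1 fell from the 2-cell to the 4-cell stage, beside the same shares of all genes. Tsen15, a subunit of the tRNA splicing endonuclease, rose by 4.88, and Ssb, the La protein that binds new tRNA precursors, fell by 1.84 (SE 0.16, adjusted p = 4.44e-13).
The 21 genes of the amino acid response moved both ways at that step, with 6 higher and 7 lower, near the shares of all genes (31.8% higher and 32.9% lower). Asns, asparagine synthetase, rose by 4.196 (SE 0.26, adjusted p = 8.78e-17), and Slc7a11, the cystine transporter, fell by 5.55 (SE 0.24, adjusted p = 1.34e-21). From zygote to 2-cell 6 of these genes rose and 2 fell, also near the shares of all genes (25.2% higher and 8.71% lower), with Psat1, phosphoserine aminotransferase, up by 5.95 (SE 0.16, adjusted p = 1.70e-26). Between GV oocyte and blastocyst 8 of the 21 rose and 4 fell, beside 38.2% higher and 30.9% lower of all genes, with Psat1 up by 8.57 and Slc7a11 down by 6.78. Atf4 itself read 73.1, 43.6, 47.1 and 41.2 CPM in 2-cell and 143, 155, 109 and 117 CPM in 4-cell pools.

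In the gradients, transcripts that carry more ribosomes sediment further, and fractions 6 to 10 were taken as the heavy and 1 to 5 as the light side. Each side's value is the mean CPM of its 5 fractions, so a fraction counts the same whatever RNA it held. The test weighs stages by the spread of their gradients. In 2-cell, 4-cell and 8-cell embryos 53.5%, 43.4% and 31.2% of the members' values in single fractions were 0, against 4.74% in blastocysts. A member that was not called at those stages may still differ. A fit with the gradient as a block, which pairs the sides of 1 lysate, is given where it changes the calls.

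In oocytes few members differed between the sides. In GV gradients limma called 0 of 38, against 4.11% of all 15172 genes tested (3.3% higher and 0.811% lower), with 7 at an unadjusted p under 0.05 and 0 by edgeR. With the gradient as a block 4 were higher on the heavy side, Lars2, Nars, Rars and Rars2, by 1.09 to 1.47 (adjusted p = 0.0339 to 0.0474). Fraction 1 held 0.0102 and 0.0231 M reads in GV gradients A and B, and with fractions 2 to 5 as the light side 7 members were called: Eprs, Lars2, Nars, Rars, Rars2 and Tars higher and Sars2 lower on the heavy side. In MII gradients 5 members were called, 13.2% against 15.2% of all genes (8.86% higher and 6.33% lower), with 1 higher and 4 lower on the heavy side. Eprs, the glutamyl-prolyl enzyme that is part of the multisynthetase complex, read 133, 92.1 and 205 CPM on the heavy side of gradients A to C and 41.1, 19.8 and 30.8 CPM on the light side. This difference of 2.18 (SE 0.51, adjusted p = 0.0021) had adjusted p = 0.0511 without gradient B. Sars, the cytosolic seryl enzyme, lay the other way, at 68.4, 58.9 and 50.1 CPM heavy and 124, 136 and 124 CPM light, a difference of -1.11 (SE 0.36, adjusted p = 0.027) that was not called without gradient B (adjusted p = 0.21) or C (adjusted p = 0.165).
Kars, Qars and Yars were also lower on the heavy side of MII gradients, by 1.05 to 1.16. Yars was nearly absent from MII oocytes, at a transcriptome mean of 0.0557 CPM. It was at the floor on the heavy sides, with at most 2 reads on each, and read 2.43, 0.393 and 1.05 CPM on the light sides. Its bound of at least 50.4-fold lower is rough. It sets a mean over single fractions against 3 reads over the summed reads of a side. With the gradient block 8 members were called in MII oocytes, 4 in each direction, while 3 were called without gradient A, 1 without B and 2 without C. edgeR on summed recovered reads, which had no stage weights, called 1, lower on the heavy side, and limma without stage weights called 0.

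**Figure D4:**
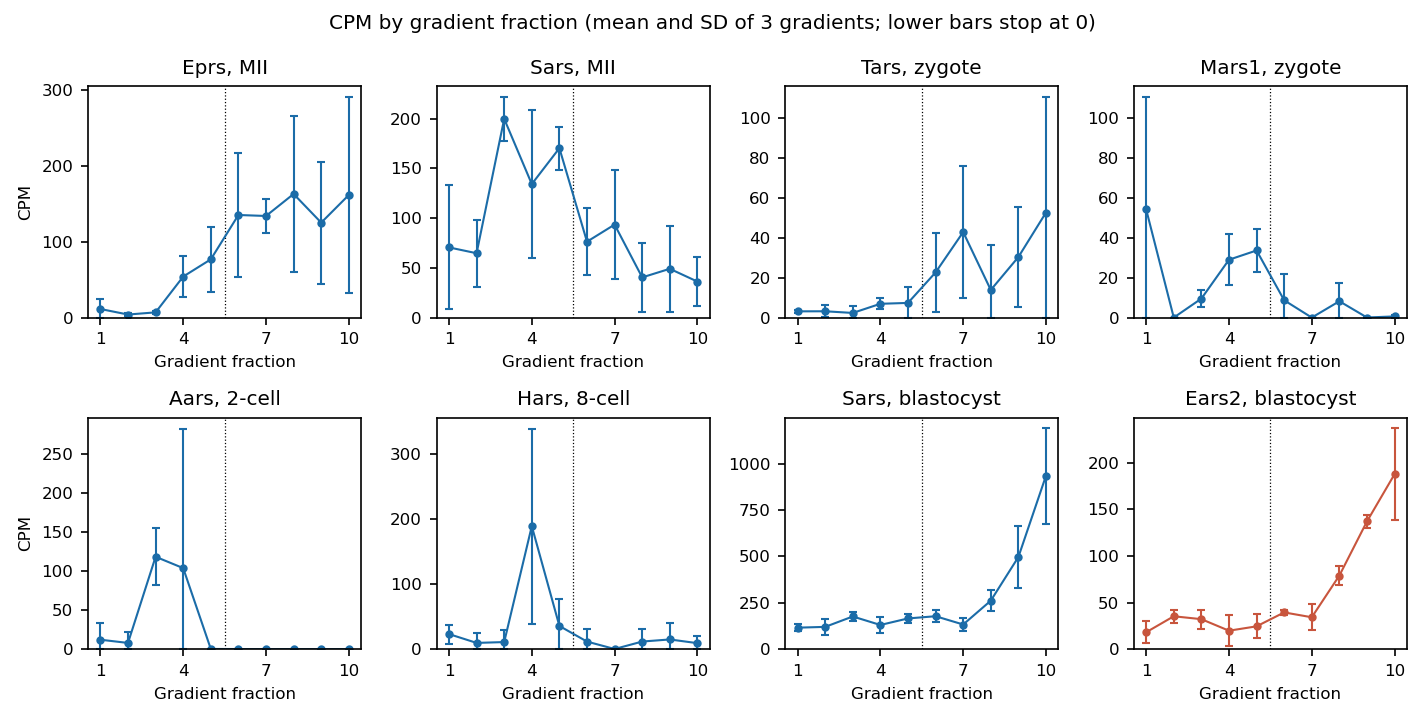
CPM in the 10 gradient fractions for 8 pairs of gene and stage, as the mean of 3 gradients with the SD (lower bars stop at 0), with a dotted line between the light and heavy sides. Eprs in MII oocytes, Tars in zygotes and Sars and Ears2 in blastocysts are highest at or past fraction 8, and Sars in MII oocytes peaks at fraction 3.

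In zygote gradients cytosolic members lay on either side. There 7 of 38 were called, 18.4% against 15% of all genes (9.95% higher and 5.06% lower), with Tars, Farsb, Eprs, Hars and Nars higher on the heavy side and Mars1 and Sars lower. Tars, the threonyl enzyme, read 39.0, 26.5 and 31.8 CPM heavy and 3.19, 4.51 and 6.01 CPM light, without overlap, a difference of 2.60 (SE 0.41, adjusted p = 1.65e-05). Mars1, the methionyl enzyme, read 3.86, 6.06 and 0.564 CPM heavy and 24.4, 38.1 and 13.3 CPM light, again without overlap and in the opposite direction, by -2.68 (SE 0.54, adjusted p = 4.36e-04). Farsb had 219.9, 188 and 273 CPM heavy and 67.8, 49.5 and 36.4 CPM light (2.15, SE 0.44, adjusted p = 5.38e-04). Tars and Mars1 were called without each gradient in turn, while 4 members in all were called without gradient C. With the gradient block 8 members were called, since the mitochondrial Lars2 was higher on the heavy side by 1.48 (adjusted p = 0.00605), and it was also called with fractions 2 to 5 as the light side (2.02, adjusted p = 0.0281). Quantile normalization gave 5 higher and 5 lower, edgeR called 0 and limma without stage weights called 1.

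In cleavage stages the spread was wide. In 2-cell gradients only Aars, the alanyl enzyme, was called, 2.63% of the members against 3.53% of all genes (1.52% higher and 2.02% lower). It read 0.0664, 0 and 0.0115 CPM heavy and 32.2, 77.5 and 35.7 CPM light, a difference of -5.48 (SE 1.196, adjusted p = 0.00611), with adjusted p = 0.0958 without gradient B and 0.0905 without C, so that no member was called without either. At the 4-cell stage limma called 0 members, against 0.817% of all genes (0.125% higher and 0.692% lower), with 6 at an unadjusted p under 0.05. edgeR called 10 members at the 2-cell stage, 2 higher and 8 lower on the heavy side, and 9 at the 4-cell stage, 7 higher and 2 lower, and limma without stage weights 5 and 7. At the 8-cell stage 3 members were called, 7.89% against 5.11% of all genes (1.08% higher and 4.03% lower). Tars2, the mitochondrial threonyl enzyme, read 74.3, 72.7 and 82.2 CPM heavy and 36.8, 0.0198 and 0.339 CPM light, a difference of 4.38 (SE 1.09, adjusted p = 0.0102). It was not called without gradient B (adjusted p = 0.228) or C (adjusted p = 0.233). Hars lay the other way, at 0.205, 11.1 and 16.98 CPM heavy and 73.0, 27.4 and 60.6 CPM light. Its difference of -2.98 (SE 0.90, adjusted p = 0.0445) was not called without gradient A (-1.50, adjusted p = 0.673), B (adjusted p = 0.1) or C (adjusted p = 0.0669), nor with the gradient block (adjusted p = 0.0522), and the third call was Vars2, higher by 3.61. The block gave 5 members, all higher on the heavy side: Aars2, Farsa, Mars1, Tars2 and Vars2. No member was called without gradient B and 1 without C, and edgeR called 1 in each direction.

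From the morula on, the called cytosolic members lay on the heavy side. In morulae 4 of 38 were called, all higher on the heavy side, 10.5% against 11.4% of all genes (5.06% higher and 6.29% lower). Farsa read 353, 622 and 548 CPM heavy and 172, 246 and 172 CPM light (1.34, SE 0.33, adjusted p = 0.00425), and Sars was higher by 1.41. Tars read 28.8, 10.8 and 31.5 CPM heavy and 4.75, 10.7 and 6.55 CPM light, level in gradient B, and its difference of 1.496 (SE 0.50, adjusted p = 0.045) was lost without any 1 gradient and with the block (adjusted p = 0.0547). Tars2, at 114, 79.8 and 57.5 CPM heavy and 6.97, 22.5 and 28.4 CPM light, differed by 2.21 (SE 0.73, adjusted p = 0.0402) and was also lost without any 1 gradient, which left 1 call each time. With the block the count was again 4, with the mitochondrial Hars2 called (2.05, adjusted p = 0.0275) in place of Tars.
In blastocysts 5 members were called, 13.2% against 17.4% of all genes (7.24% higher and 10.1% lower). Sars read 315, 467 and 419 CPM heavy and 135, 133 and 155 CPM light, without overlap, a difference of 1.48 (SE 0.30, adjusted p = 2.33e-04) opposite to that in MII oocytes and zygotes. Ears2 read 79.4, 99.8 and 108 CPM heavy and 19.2, 34.0 and 24.7 CPM light (1.87, SE 0.47, adjusted p = 0.00286), with adjusted p = 0.0559 without gradient C. Farsa and Hars were higher on the heavy side by 1.43 and 1.33. Lars2 was lower, at 534, 129 and 159 CPM heavy and 3571, 311 and 485 CPM light (-1.87, SE 0.58, adjusted p = 0.0156), with adjusted p = 0.116 without gradient C, where 3 members in all were called. edgeR called 0 members in morulae and in blastocysts, and limma without stage weights 1 in each. With the gradient block 7 members were called, with Dars and Mars2 also higher on the heavy side by 1.25 (adjusted p = 0.0392) and 1.18 (adjusted p = 0.0484). Lars2 aside, and without the block, 4 members were called in blastocysts, all higher on the heavy side.

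The dual genes showed few differences between the sides. Gars was called at no stage, with differences from -1.27 at the 8-cell to 3.18 at the 4-cell stage. In 4-cell gradients it read 27.3, 2.64 and 52.2 CPM heavy and 0.358, 0.869 and 1.91 CPM light, and in blastocysts 55.6, 58.6 and 75.8 CPM heavy and 52.5, 48.9 and 63.1 CPM light. Kars was called in MII oocytes, at 15.7, 23.6 and 31.1 CPM heavy and 56.5, 58.1 and 42.2 CPM light (-1.16, SE 0.31, adjusted p = 0.00778).

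The mean position in the gradient, the average fraction number weighted by CPM, had a higher median in the cytosolic than in the mitochondrial class before cleavage, while the members of the classes overlapped. In zygotes the median position of 18 cytosolic members was 5.98 and that of 14 mitochondrial members 5.00, a difference of 0.98, and within gradients A to C it was 1.16, 1.03 and 1.09. In GV gradients the difference was 0.43 (0.463, 0.256 and 0.235 within gradients) and in MII gradients 0.51 (0.093, 0.181 and 1.06). Single members spanned 3.65 to 7.77 (cytosolic) and 4.11 to 6.66 (mitochondrial) in zygotes. The cytosolic median was the further down the gradient in all 9 gradients of these 3 stages. Later the sign was not the same in the 3 gradients of any stage: at the 2-cell stage they gave 0.125, -0.712 and -0.547, in morulae -0.0383, 0.159 and 0.833, and in blastocysts -0.384, -0.385 and 0.347. These differences were not tested. The 10th to 90th percentile over all genes in zygotes was 4.13 to 7.14, wider than the difference between the classes.

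**Figure D5:**
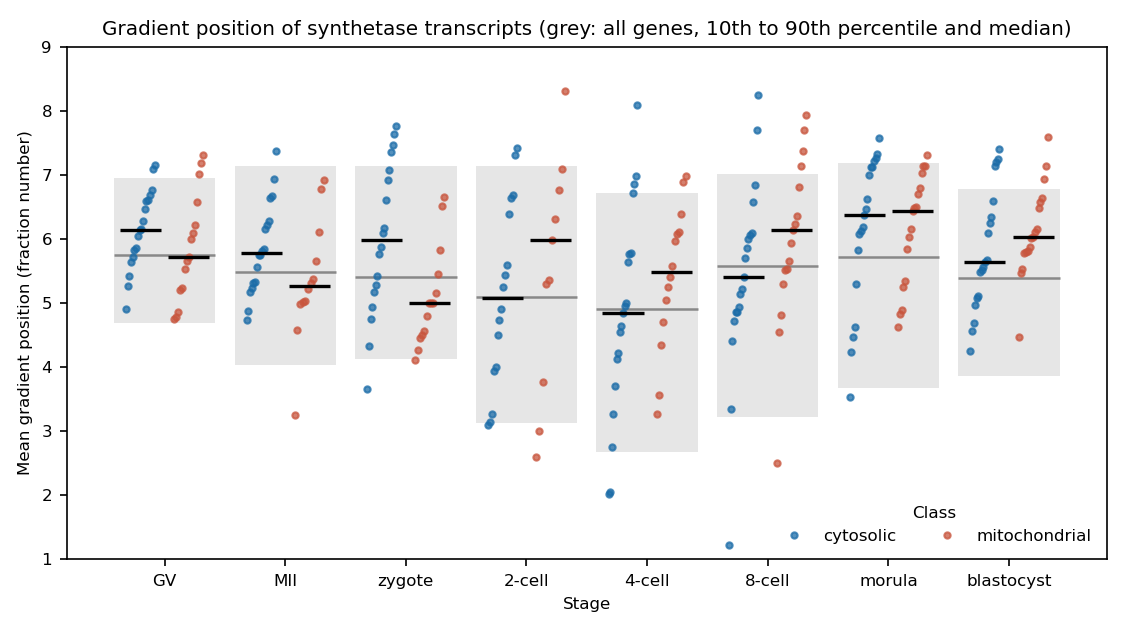
Mean gradient position (fraction number weighted by CPM, mean of 3 gradients) of each cytosolic (blue) and mitochondrial (red) synthetase gene with a mean of at least 1 CPM in the fractions of a stage, with the class median (black bar) over the 10th to 90th percentile and median of all genes (grey). The cytosolic median is above the mitochondrial one in GV oocytes, MII oocytes and zygotes.

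Whether a change on the heavy side went beyond that of the transcriptome was tested as an interaction over 15165 genes, which sets a change of the heavy side against the change of the transcriptome and makes no use of their levels. The labels do not pair pools with gradients. From GV to MII 1 member was called, 2.63% against 16.6% of all genes (12.3% higher and 4.34% lower). This was Vars, at 23.7, 32.6 and 27.9 CPM on the heavy side of GV and 62.0, 87.2 and 54.6 CPM on that of MII gradients while its transcriptome level went from 1.08 to 0.269 CPM, an interaction of 1.89 (SE 0.57, adjusted p = 0.0146) that was lost without replicate A (adjusted p = 0.113) or B (adjusted p = 0.147). From MII to zygote it was Tars, with 3.41% of all genes called (1.64% higher and 1.77% lower), at 5.84, 23.0 and 11.6 CPM and then 39.0, 26.5 and 31.8 CPM on the heavy side. Its interaction of 1.76 (SE 0.51, adjusted p = 0.0384) was lost without any 1 replicate letter (adjusted p = 0.0586 to 0.561), with no member then called. Quantile normalization called 1 other member, lower, and the fit with the letter as a block called 1 in each direction.

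From zygote to 2-cell 6 members were lower on the heavy side than the change of the transcriptome gave, 15.8% against 8.66% of all genes (0.191% higher and 8.47% lower), and the medians were -0.92 for the members and -0.89 for all genes. Aars read 28.8, 62.3 and 19.7 CPM on the heavy side of zygote gradients and 0.0664, 0 and 0.0115 CPM on that of 2-cell gradients, while its transcriptome level rose by 1.01. The interaction was -6.06 (SE 0.94, adjusted p = 5.76e-05) and was called under each of the 11 alternatives tried. Ears2 was the larger of the 2 mitochondrial calls, at -4.05 (SE 1.22, adjusted p = 0.0276), with 49.6, 6.46 and 6.43 CPM heavy in zygotes and 0, 14.2 and 7.44 CPM in 2-cell embryos. It was lost without replicate A (-1.79, adjusted p = 0.544) or C (adjusted p = 0.0701), and Cars, Hars, Sars2 and Tars were called at -4.16 to -3.00. Without replicate A 1 member was called, and 3 without B or C. After quantile normalization, which took the median of all genes to 0.04, 2 members were called, 1 in each direction.

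Later steps had few called members. From 2-cell to 4-cell 2 members were called, 5.26% against 2.57% of all genes (0.844% higher and 1.73% lower). Vars was called at -6.61 (SE 1.48, adjusted p = 0.00696) and Farsb at -5.30. Vars read 164, 49.8 and 0.207 CPM on the heavy side of 2-cell gradients, where gradient C stood far below A and B, and 1.67, 0.378 and 0.799 CPM on that of 4-cell gradients, and was lost without replicate A (adjusted p = 0.0909) or B (adjusted p = 0.201), with 1 member called without B or C. edgeR called 8 in each direction. At the same step the median interaction of the members was -2.01 against -0.16 for all genes, beside the median rise of 2.02 in the transcriptome. This median was -1.52 against -0.01 after quantile normalization and -0.74 against 0.41 with edgeR. In single fractions of the 2-cell and 4-cell stages, 53.5% and 43.4% of the members' values were 0. In simulated reads with known changes, the fit recovered 12% of 4-fold and 26% of 16-fold changes at this step. From 4-cell to 8-cell 1 member was called, 2.63% against 0.646% of all genes (0.633% higher and 0.0132% lower). Mars1 went from 0.380, 0.0513 and 0.292 CPM to 164, 55.2 and 62.5 CPM on the heavy side, without overlap, an interaction of 5.96 (SE 1.33, adjusted p = 0.018), lost without replicate A (adjusted p = 0.102) or B (adjusted p = 0.209), where no member was called, while 2 were called without C. Quantile normalization called 0, and edgeR 5 higher and 2 lower. From 8-cell to morula 2 members were called, 5.26% against 3.28% of all genes (2.09% higher and 1.19% lower). Dars, the aspartyl enzyme, went from 0.178, 1.13 and 0.406 CPM to 17.4, 24.2 and 36.8 CPM on the heavy side. Its interaction of 3.81 (SE 0.83, adjusted p = 0.00344) was lost without replicate C (adjusted p = 0.12), and Hars was called at 2.97. Without replicate A 1 member was called and without B 6.
From morula to blastocyst 3 members were called, 7.89% against 7.7% of all genes (2.04% higher and 5.65% lower). Wars2 was at 49.3, 30.7 and 18.1 CPM and 12.9, 15.1 and 10.2 CPM on the heavy side while its transcriptome level fell by 3.37, an interaction of 2.17 (SE 0.46, adjusted p = 0.0014). Lars2, at 1002, 183 and 211 CPM and then 534, 129 and 159 CPM, was called at -2.88 (SE 0.69, adjusted p = 0.00497), and Iars2 at -2.15. Both Wars2 and Lars2 were lost without replicate B (adjusted p = 0.0891 and 0.116) and without replicate C (adjusted p = 0.0979 and 0.15), and 0 members were called without B and 1 without C. Without Lars2 the count was 1 higher and 1 lower.

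Between the ends of the series, 20 of 38 members were lower on the heavy side of blastocyst gradients than the transcriptome would give and none was higher, 52.6% against 47.6% of all genes (13.7% higher and 33.9% lower). The 20 were 10 cytosolic, both dual and 8 mitochondrial genes, or 19 of 37 without Lars2. Vars read 23.7, 32.6 and 27.9 CPM on the heavy side in GV and 37.5, 37.8 and 39.9 CPM in blastocyst gradients, against 1.58, 1.6004, 0.682 and 0.449 CPM and 115, 123, 130.4 and 124 CPM in the transcriptomes, an interaction of -5.498 (SE 0.48, adjusted p = 8.81e-14). Lars2 had -8.52 (SE 0.58, adjusted p = 4.48e-17), from 507, 344 and 673 CPM on the heavy side of GV gradients, beside a transcriptome level of 14.9, 17.1, 13.8 and 15.4 CPM in GV pools. In the multisynthetase complex 6 of 8 members were called, all lower (Eprs, Iars, Kars, Lars, Mars1 and Rars). Quantile normalization, which moved the median of all genes from -0.43 to 0.07, gave 4 higher and 18 lower, and edgeR called 4 members.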

How the data were processed

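Libraries were made from polyadenylated RNA by a Smart-seq protocol with Nextera tagmentation, per the labels' protocols, from 32 pools of 20 oocytes or embryos and from 240 fractions of 24 gradients of about 100. Per the submitters' processing notes, the tools were Trim Galore 0.6.7, FastQC, HISAT2 2.2.1, featureCounts 2.0.1 and edgeR with the mouse build GRCm39. The annotation and counting options are not given in the sources used here. The authors deposited 1 table of CPM for 15854 symbols. After 76 groups of repeated rows (159 symbols) were reduced, 15771 were kept. A total of 38 deposited columns sum to more than 1000000, and 9 of these were recorded as signal rather than CPM and used in the same way. The step between low values gave whole reads for 100% of values (tolerance 0.05 reads), and these recovered counts of the deposited CPM served edgeR and DESeq2. They covered 271 of 272 libraries, since fraction 7 of 2-cell gradient B was left out of count models: its step of 0.101 CPM is so near 0.1 that it could be mistaken for rounding.

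Values were tested as log2(CPM + 1) with limma 3.58.1 in R 4.3.3 over genes reaching 1 CPM, with all stages in 1 fit and, for fractions, weights per stage. A call needed a Benjamini-Hochberg adjusted p under 0.05 and a change of at least 1, and a fold on this scale understates the change of low genes. A floor of 3 reads per library, or per side of a gradient, replaced groups at 0, and floors cover counting error only. Alternatives were edgeR 4.0.16, DESeq2 1.42.0, quantile normalization, a pseudocount of 0.1, no filter, other fraction limits, no stage weights, a fit of only the groups compared, the replicate block and each replicate left out. The fits were tested on simulated reads with known changes. The changed genes were drawn only from those with a higher mean CPM, so the recovery does not describe members at low levels. The transcriptome fit recovered 88% to 92% of 4-fold changes. The heavy against light fit recovered 46% in GV oocytes, 69% in blastocysts and 2%, 1% and 5% at the 2-cell, 4-cell and 8-cell stages. At these last 3 stages it recovered 19%, 16% and 47% of 16-fold changes. From zygote to 2-cell the interaction fit recovered 5% of 4-fold and 23% of 16-fold changes and called 2.92% of unchanged genes.

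Heavy and light sides of 1 gradient come from the same lysate. Their deviations from the group means correlated weakly, at r = 0.00776 to 0.253 (median 0.0973). The main fit did not pair the sides, and the gradient block, which does, was an alternative. No pair of replicates agreed within sampling noise (288 pairs, lowest chi-square per degree of freedom 2.55). Exon lengths came from GENCODE M21 and promoters from RefSeq, both on GRCm38, which is not the build of the files, so genes were matched by symbol, 38 of 38 for lengths. The members, classes, marker lists and pathway lists were chosen with earlier results of these data known. Full values were given for the called member with the largest rise and the largest fall in each class and comparison, for Gars and Kars at all stages, and for 1 gene in each direction of the other lists. A few further members were named after their values were seen. The values of 1 member and of 1 gene of the other lists are not reported here. Figures and tables used Python 3.11.15.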

Additional observations from a re-analysis of the deposited data

Results flagged for a closer look

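Among 56 sets of 4 transcriptome pools from named members and stages, 2 had a pool far from the other 3 by Dixon's test, and chance gives about 1 set in 20. In GV oocytes, Hars read 17.97 CPM in pool B beside 12.7 to 13.6 CPM in the others. In morulae, Kars read 242 CPM in pool C beside 184 to 192 CPM in the others.

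Between consecutive stages, 9 interactions tested with limma were the largest called in their class and direction. In these the change of the heavy side differed from that of the transcriptome, and further called ones are given above. These were Vars from GV to MII (1.89), Tars from MII to zygote (1.76), Aars and Ears2 from zygote to 2-cell (-6.06 and -4.05) and Vars from 2-cell to 4-cell (-6.61). The later ones were Mars1 from 4-cell to 8-cell (5.96), Dars from 8-cell to morula (3.81) and Wars2 and Lars2 from morula to blastocyst (2.17 and -2.88). Of these 9, Aars was called under every alternative tried. Between GV oocyte and blastocyst, Vars and Lars2 were also called under each of 12 alternatives.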

How the results depend on the processing

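For transcriptomes, quantile normalization called 2 members at MII/zygote, and edgeR and DESeq2 called 22 each at zygote/2-cell, where limma called 14. Leaving out 1 pool letter gave 2 to 4 calls at MII/zygote and 0 to 1 at 4-cell/8-cell. The letters of pools did not pair the samples (r = -0.178 to 0.169 over 28 libraries without the 2-cell stage, whose columns carry other letters), and the replicate block changed no transcriptome count. Changes of single named members kept their call in 219 of 223 cases for transcriptomes, 94 of 144 for heavy against light and 96 of 129 for interactions.

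For heavy against light, edgeR called 1 member in MII oocytes, 0 in zygotes, 10 at the 2-cell and 9 at the 4-cell stage, and 0 in morulae and blastocysts. Without stage weights the counts were 0 in MII oocytes, 1 in zygotes, 5, 7 and 6 at the 2-cell, 4-cell and 8-cell stages, and 1 in morulae and blastocysts. A pseudocount of 0.1 gave 2 at the 2-cell stage, 1 at the 4-cell stage and 2 in morulae. A fit of only the groups compared gave 2 at the 2-cell and 0 at the 8-cell stage. The replicate block by gradient gave 4 in GV oocytes, 8 in MII oocytes, 8 in zygotes, 5 at the 8-cell stage, 4 in morulae and 7 in blastocysts. Blastocysts had 8 with fractions 7 to 10 as the heavy side and 8 after quantile normalization, and GV oocytes 7 with fractions 2 to 5 as the light side. Leaving out 1 gradient gave 1 to 3 calls in MII oocytes, 4 to 6 in zygotes, 0 to 1 at the 2-cell stage, 0 to 2 at the 8-cell stage, 1 in morulae and 3 to 5 in blastocysts.

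For interactions, edgeR called 0 members at the GV/MII, MII/zygote and morula/blastocyst steps, 14 at zygote/2-cell, 16 at 2-cell/4-cell, 7 at 4-cell/8-cell and 4 at GV/blastocyst. Without stage weights the counts were 0 at GV/MII, 12 at zygote/2-cell, 18 at 2-cell/4-cell, 14 at 4-cell/8-cell and 4 at 8-cell/morula. A pseudocount of 0.1 gave 2 at GV/MII, 0 at MII/zygote, 12 at zygote/2-cell and 2 at 4-cell/8-cell. Fractions 7 to 10 as the heavy side gave 0 at MII/zygote and 3 at 4-cell/8-cell, a fit of only the groups compared 0 at MII/zygote and 3 at zygote/2-cell. Quantile normalization gave 2 at zygote/2-cell and 0 at 4-cell/8-cell, and the replicate block 2 at MII/zygote. Leaving out 1 letter gave 0 at MII/zygote, 1 to 6 at zygote/2-cell, 1 to 3 at 2-cell/4-cell, 0 to 2 at 4-cell/8-cell, 1 to 6 at 8-cell/morula and 0 to 3 at morula/blastocyst.

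The difference in gradient position between cytosolic and mitochondrial members became 0.709 in GV oocytes, -0.0794 at the 8-cell stage and 0.0652 in blastocysts, a reversal, with fractions 2 to 10. Leaving out 1 gradient gave 0.304 to 0.798 in GV oocytes, 0.840 to 1.18 in zygotes and -0.776 to -0.226 at the 2-cell stage. In morulae it was -0.0526 with all gradients and reversed without any 1 gradient, to 0.0478 to 0.582. There it was 0.582 without gradient A and 0.436 without B. The causes were not tested. Calls at the 2-cell and 4-cell stages are limited by members at 0 reads in many fractions, and CPM gives shares of a library, not amounts.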
